A study of Sus scrofa with 10 samples.

Results

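A set of 7 genes of cholesterol carriage and export was followed in aortic valve leaflets, namely APOE, APOA1, APOD, ABCA1, SCARB1, PLTP and NPC2. They were chosen by name, as apolipoproteins and cholesterol efflux genes, and each needed a probe set (a group of short probes that reads 1 transcript) whose array annotation gives only that symbol. All 7 genes had one, with 11 probe sets between them, of 6765 genes and 23999 probe sets measured. A gene was represented by its brightest probe set, that with the highest mean level, and the others are given beside it. Levels are log2 values per probe set, so that each unit is a doubling.

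The tissue came from 3 groups of female swine on a chow diet, 10 arrays in all. The adult RFH group (4 arrays, age 2 years) and the juvenile RFH group (3 arrays, age 3 months) belong to the Rapacz Familial Hypercholesterolemic breed, which has inherited high blood cholesterol, and their labels give no genotype beyond the breed. The juvenile WT group (3 arrays, age 3 months) is labelled as Rapacz Wisconsin Miniature Swine with the genotype RFH -/-. The study set adult RFH against juvenile RFH leaflets, and juvenile RFH against juvenile WT leaflets. No adult WT leaflets were analysed here, so age and the course of the disease cannot be told apart in the first comparison. In the second, the labelled breed and the RFH condition cannot be told apart. The labels do not say that each array is a separate animal, and the p-values then measure only the spread between these samples.

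Cells that take up lipoproteins free the cholesterol in the lysosome, where NPC2 binds it and passes it on to the membrane protein NPC1. Surplus cholesterol leaves the cell through the transporter ABCA1, which loads it on lipid-poor apolipoproteins such as APOA1 and APOE, and the nascent particles mature into high-density lipoprotein (HDL). PLTP then remodels HDL by moving phospholipid between particles, and SCARB1 is the HDL receptor that exchanges cholesterol and its esters with them. In human and mouse macrophages ABCA1, APOE and PLTP are known targets of the liver X receptors, which sense oxidised cholesterol. Lipid-laden macrophages are a known feature of diseased aortic valves and of atherosclerotic arteries.

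Array medians lay between 6.96 and 7.03, and arrays of 1 group correlated at 0.982 or more with each other. Replicate spread was widest in adult RFH arrays, where a probe set had a median SD of 0.19, against 0.13 for juvenile RFH and 0.095 for juvenile WT. VIM and DCN, markers of the interstitial cells that make up the leaflet, were among the bright transcripts on all arrays, with group means between 14.1 and 14.5. Juvenile RFH replicate 2 stood apart in cardiac muscle markers. Its mean over 13 of them was 8.49, where replicates 1 and 3 had 5.39 and 5.70. The calls of the 7 genes are therefore also given without this array. The poly-A labelling controls averaged 7.12 ± 0.16 in the adult RFH arrays (SD, n = 4), against 6.32 ± 0.02 in the juvenile RFH arrays (SD, n = 3), a difference of 0.80. The two-sided exact permutation p of 0.0286 is the lowest a split of 4 and 3 arrays can give, and the part of this difference in the results was not tested. Juvenile WT arrays averaged 6.54 ± 0.06 (SD, n = 3) in the same controls.

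In adult RFH leaflets 6 of the 7 genes rose relative to juvenile RFH leaflets, and none fell. APOE, APOD, ABCA1 and APOA1 rose by 1.94-fold to 3.43-fold, NPC2 and PLTP rose by 1.35-fold and 1.29-fold, and SCARB1 did not pass the test. Rose and fell are used for a limma adjusted p under 0.05, with Benjamini-Hochberg adjustment over all 23999 probe sets. By the same rule 11.4% of all 6765 genes were called higher and 7.85% lower in adult RFH leaflets. Of the 11 probe sets 7 rose and none fell, where 8.03% of all probe sets were called higher. The median change of the 7 genes was 0.96 on the log2 scale, beside 0.02 for all genes. In whole leaflets a change in the number of cells of a type and a change in RNA per cell cannot be told apart. The same 6 genes had adult values that did not overlap the juvenile RFH values, as 16.6% of all genes did in that direction. Without juvenile RFH replicate 2, the array with cardiac transcripts, 5 of the 7 genes were called, and NPC2 was the one lost (adjusted p = 0.0599). The number called was 3 without juvenile RFH replicate 1 and again 3 without juvenile RFH replicate 3, and it was 4 without adult RFH replicate 2.

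**Figure D1:**
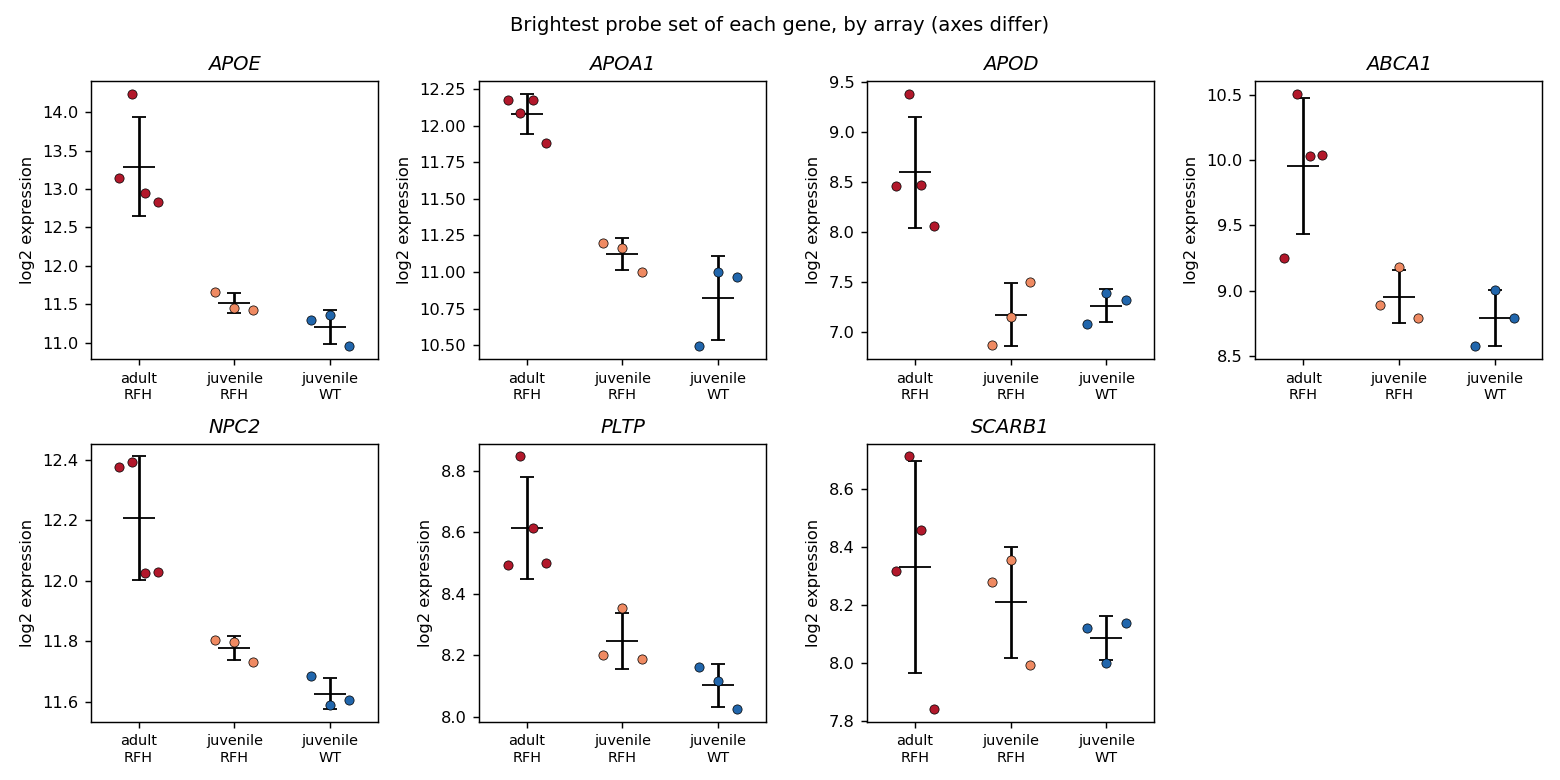
Log2 level of the brightest probe set of each of the 7 genes on every array, with a panel per gene and adult RFH (4 arrays), juvenile RFH (3) and juvenile WT (3) side by side; points are arrays, and lines are group means with bars of 1 SD (axes differ between panels). The adult RFH arrays lie above both juvenile groups for every gene but SCARB1, where the groups overlap.

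APOE (gene ID 397576), the apolipoprotein that binds receptors of the LDL receptor family and is secreted by liver and by macrophages, had the largest change of the 7 brightest probe sets. Its level was 13.15, 14.24, 12.95 and 12.83 in the adult RFH arrays, against 11.66, 11.46 and 11.43 in the juvenile RFH arrays. Every adult array lay at least 1.17 above the highest juvenile RFH array, and adult replicate 2 lay well above the other adults. APOE had a mean of 13.29 ± 0.65 (SD, n = 4) in adult RFH leaflets and 11.52 ± 0.13 (SD, n = 3) in juvenile RFH leaflets. The change was 1.78 on the log2 scale (SE 0.28, 3.43-fold, 95% interval of the fold 2.21 to 5.31, limma adjusted p = 0.0028). Only 1.23% of the 6765 genes had as large a rise. Without adult RFH replicate 2 the change was 1.46, and it passed the test in each fit that left out 1 of the 10 arrays.

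The other, dimmer APOE probe set did not show this change. It read 6.66, 6.70, 6.53 and 6.70 in adult RFH and 6.58, 6.40 and 6.54 in juvenile RFH arrays, below the array's median on all 10 arrays. The groups overlapped, and its change was 0.14 (SE 0.09, limma adjusted p = 0.309). The changes of the APOE probe sets differed by -1.64 (two-sided exact permutation p = 0.0286, the smallest possible, adjusted p = 0.114 over 8 such comparisons). That comparison of probe sets of 1 gene was added after the data were seen, and at this number of arrays none of the 8 could pass after adjustment. With the mean of both probe sets in place of the brightest, the APOE change was 0.96 (limma adjusted p = 0.00353).

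APOA1 (gene ID 397691) is the main protein of HDL and the acceptor of the cholesterol that ABCA1 exports, and in mammals it is made chiefly by liver and intestine. Leaflets read 12.18, 12.09, 12.18 and 11.88 for APOA1 in adult RFH arrays, against 11.20, 11.17 and 11.00 in juvenile RFH arrays. The groups were separated by 0.69, and the adult arrays lay closer together than for APOE. The means were 12.08 ± 0.14 (SD, n = 4) in adult RFH leaflets and 11.12 ± 0.11 (SD, n = 3) in juvenile RFH leaflets, a rise of 0.96 (SE 0.14, 1.94-fold, limma adjusted p = 0.0014). Leaving out any 1 array kept the APOA1 call, with changes between 0.90 and 1.02. Of 13 liver and plasma protein transcripts 1 rose and 1 fell in adult RFH relative to juvenile RFH leaflets, with a summed linear level between 933 and 1564 in adult RFH and between 822 and 908 in juvenile RFH arrays. RBP4 was the one that rose (0.65, limma adjusted p = 0.0395) and CPS1 the one that fell (-1.57, adjusted p = 0.00408). The RBP4 call held in 2 of the 10 fits that left out 1 array, and the other RBP4 probe set changed by 0.07 (adjusted p = 0.781). HP (1.74, adjusted p = 0.0502) and TF (0.95, adjusted p = 0.0789) were not called. The defining liver markers were not called either. ALB averaged 4.75 in adult RFH and 4.66 in juvenile RFH leaflets (adjusted p = 0.647), and TTR averaged 5.46 in adult RFH and 5.49 in juvenile RFH leaflets (adjusted p = 0.875). The part of these transcripts in the APOA1 result was not tested.

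APOD (gene ID 100157318) is a lipocalin, a carrier of small lipophilic molecules that is found on HDL and is made in many tissues outside the liver. Its adult RFH values were 8.46, 9.39, 8.47 and 8.06, against 6.86, 7.15 and 7.49 in juvenile RFH arrays. As for APOE, adult replicate 2 was the highest and replicate 4 the lowest, and the groups did not overlap. APOD averaged 8.60 ± 0.56 (SD, n = 4) in adult RFH leaflets and 7.17 ± 0.32 (SD, n = 3) in juvenile RFH leaflets, a rise of 1.43 (SE 0.27, 2.69-fold, limma adjusted p = 0.00584). The rise was 1.17 without adult replicate 2 and passed the test without any 1 of the 10 arrays.

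Among the proteins that move cholesterol across the membrane, the exporter ABCA1 rose and the HDL receptor SCARB1 did not pass the test. ABCA1 (gene ID 100152112) read 9.25, 10.51, 10.03 and 10.03 in adult RFH arrays, against 8.89, 9.18 and 8.79 in juvenile RFH arrays. Adult replicate 1 lay only 0.07 above juvenile RFH replicate 2, so the groups barely separated. ABCA1 averaged 9.95 ± 0.52 (SD, n = 4) in adult RFH leaflets and 8.95 ± 0.20 (SD, n = 3) in juvenile RFH leaflets, a rise of 1.00 (SE 0.24, 2.00-fold, 95% interval of the fold 1.38 to 2.91, limma adjusted p = 0.0192). ABCA1 missed the threshold when juvenile RFH replicate 1 (adjusted p = 0.0699) or 3 (0.0775) was left out, and the exact permutation test on the 7 arrays gave p = 0.0571.

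SCARB1 (gene ID 397018) read 8.32, 8.71, 8.46 and 7.84 in adult RFH arrays, against 8.28, 8.36 and 7.99 in juvenile RFH arrays. Adult replicate 4 was below all juvenile RFH arrays and adult replicate 2 was above all of them. The SCARB1 difference was 0.12 (SE 0.18, limma adjusted p = 0.691), with a 95% interval of -0.27 to 0.52. Without adult replicate 2 it was close to 0, at -0.0038. Whether the change of SCARB1 differs from that of ABCA1 was not tested.

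PLTP (gene ID 397527), the phospholipid transfer protein of plasma and tissue macrophages, was read by a pair of probe sets that rose by different amounts. The brightest read 8.50, 8.85, 8.61 and 8.50 in adult RFH arrays, against 8.20, 8.35 and 8.19 in juvenile RFH arrays. Its mean was 8.61 ± 0.17 (SD, n = 4) in adult RFH leaflets and 8.25 ± 0.09 (SD, n = 3) in juvenile RFH leaflets, a rise of 0.37 (SE 0.10, 1.29-fold, limma adjusted p = 0.0361). This small rise was past the threshold in 4 of the 10 fits that left out 1 array. It was lost without adult RFH replicate 2 (adjusted p = 0.0623), without juvenile RFH replicate 1 (0.116) or 3 (0.12), and without juvenile WT replicate 1 (0.0547), 2 (0.0591) or 3 (0.0539).

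The other PLTP probe set spread far more widely. It read 9.10, 9.74, 8.88 and 8.19 in adult RFH arrays, against 7.02, 6.78 and 6.59 in juvenile RFH arrays. The lowest adult array lay 1.17 above the highest juvenile RFH array. Its change was 2.18 (SE 0.28, 4.53-fold, limma adjusted p = 0.000851), the largest among the 11 probe sets, and it stayed between 1.92 and 2.44 and past the threshold without any 1 array. The PLTP probe sets' changes differed by 1.81 (two-sided exact permutation p = 0.0286, adjusted p = 0.114 over the 8 comparisons). With the mean of the pair the PLTP change was 1.27 (limma adjusted p = 0.00138). Across the 10 arrays the pair followed each other with a Pearson correlation of 0.947, a value on which the split between adult and juvenile arrays weighs.

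**Figure D2:**
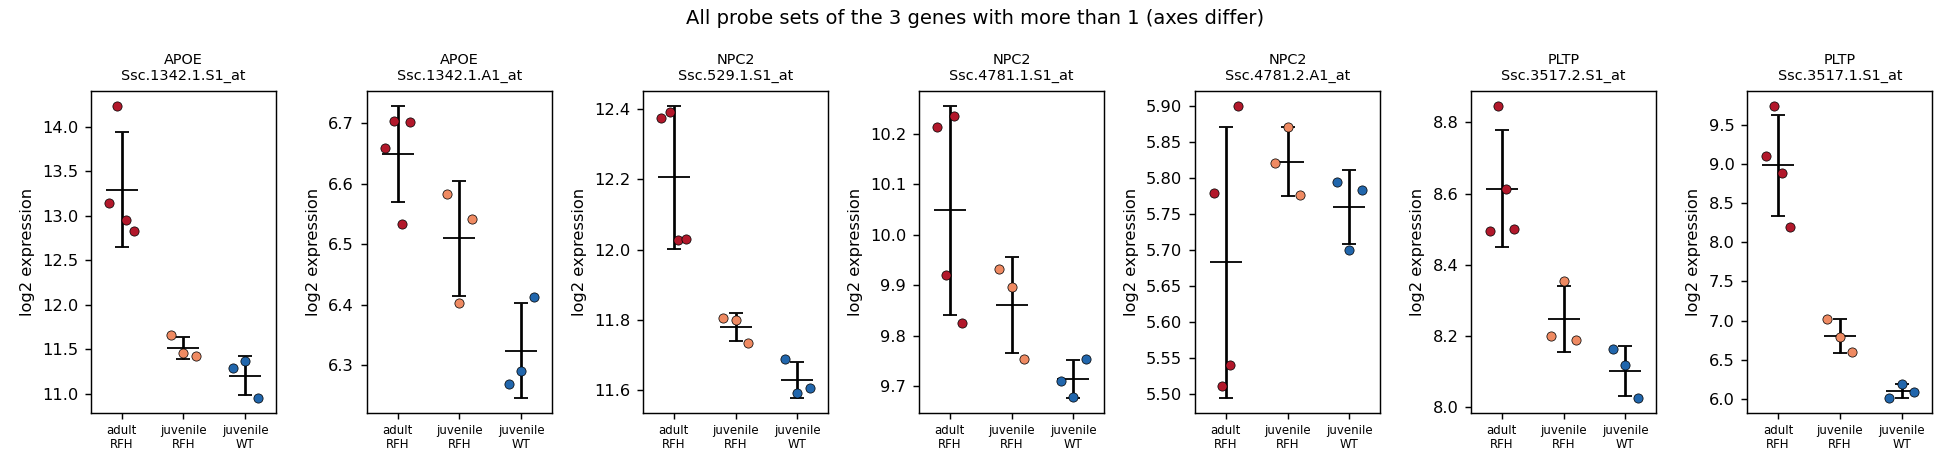
Log2 level of all 7 probe sets of APOE, NPC2 and PLTP, the genes with more than 1, on each array of adult RFH, juvenile RFH and juvenile WT leaflets; points are arrays, and lines are group means with bars of 1 SD (axes differ between panels). The second PLTP probe set steps apart in the 3 groups, whereas the dim APOE probe set and the third NPC2 probe set overlap between adult and juvenile RFH arrays.

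NPC2 (gene ID 397410), the soluble cholesterol carrier of the lysosome, was called on its brightest probe set, with a small rise. That probe set read 12.37, 12.39, 12.03 and 12.03 in adult RFH arrays, against 11.80, 11.80 and 11.73 in juvenile RFH arrays. The groups lay 0.22 apart, with adult replicates 1 and 2 above adult replicates 3 and 4. NPC2 averaged 12.21 ± 0.20 (SD, n = 4) in adult RFH leaflets and 11.78 ± 0.04 (SD, n = 3) in juvenile RFH leaflets, a rise of 0.43 (SE 0.11, 1.35-fold, limma adjusted p = 0.025).

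The remaining NPC2 probe sets did not pass, and their changes were not shown to differ from that of the brightest. The second read 9.83 to 10.24 in adult RFH and 9.75 to 9.93 in juvenile RFH arrays, a change of 0.19 (limma adjusted p = 0.296). The third, below the array median throughout, read 5.51 to 5.90 in adult RFH and 5.78 to 5.87 in juvenile RFH arrays, a change of -0.14 (limma adjusted p = 0.411). Set against the brightest, these changes differed by -0.24 (two-sided exact permutation p = 0.229, adjusted p = 0.305 over the 8 comparisons) and by -0.57 (exact permutation p = 0.0571, adjusted p = 0.152). With the mean of the 3 probe sets in place of the brightest, the NPC2 change was 0.16 and was not called (limma adjusted p = 0.211). The call on the brightest probe set was also lost without adult RFH replicate 1 (adjusted p = 0.0528) or 2 (0.0519), and without juvenile RFH replicate 1 (0.0685), 2 (0.0599) or 3 (0.0871).

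**Figure D3:**
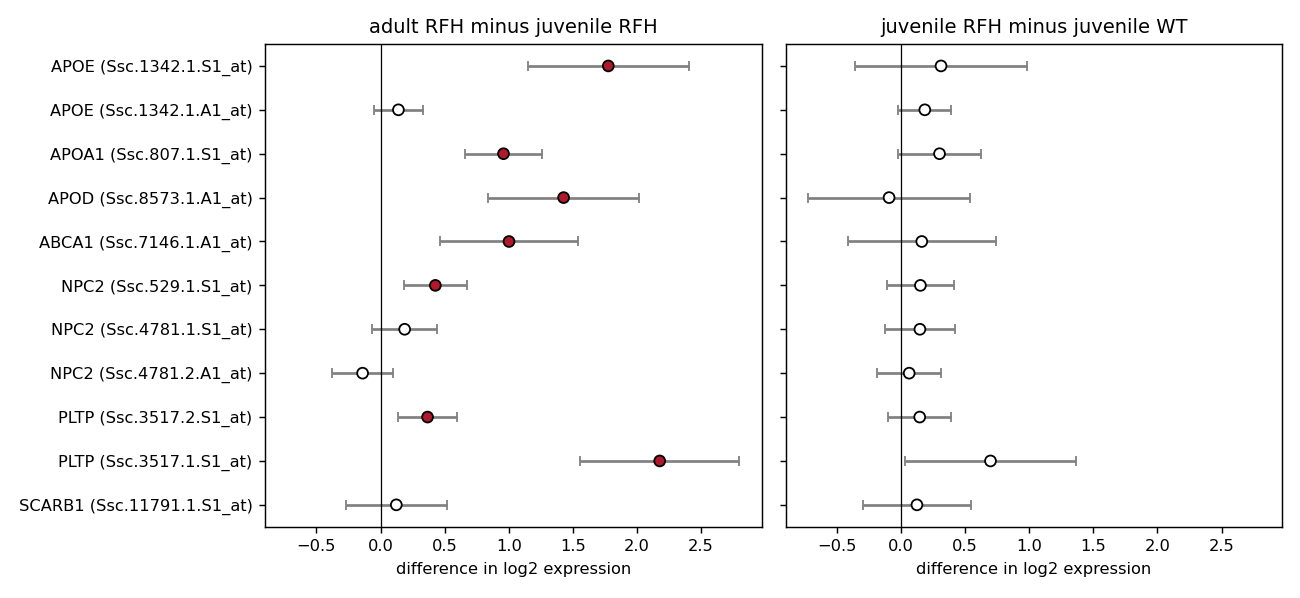
Change on the log2 scale for all 11 probe sets of the 7 genes, adult RFH minus juvenile RFH in the left panel and juvenile RFH minus juvenile WT in the right; points are limma estimates, lines their 95% intervals, and filled red points have an adjusted p under 0.05. In the left panel 7 probe sets are filled, and in the right panel none is.

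The adult arrays did not vary alike. Adult RFH replicate 2 had the highest level of the 4 adults for 6 of the 7 genes, the exception being APOA1, which was highest in replicate 1. Replicate 4 was the lowest for 4 of the genes, replicate 1 for 2 and replicate 3 for 1. For APOE the SD over adult RFH arrays was 5.08 times that over juvenile RFH arrays. Adult replicate 2 also had the highest mean of the 17 measured macrophage markers, 10.51, against 10.29, 9.81 and 9.85 in adult replicates 1, 3 and 4. Its mean over 9 lymphocyte markers was 6.65, against 5.34 to 5.73 in the other adults. Nor was this limited to immune markers. Among the adults, replicate 2 was also highest in the mean of 12 endothelial markers (9.72). It was lowest in the means of 12 valve interstitial and fibroblast markers (11.82) and 7 smooth muscle markers (9.26).

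**Figure D4:**
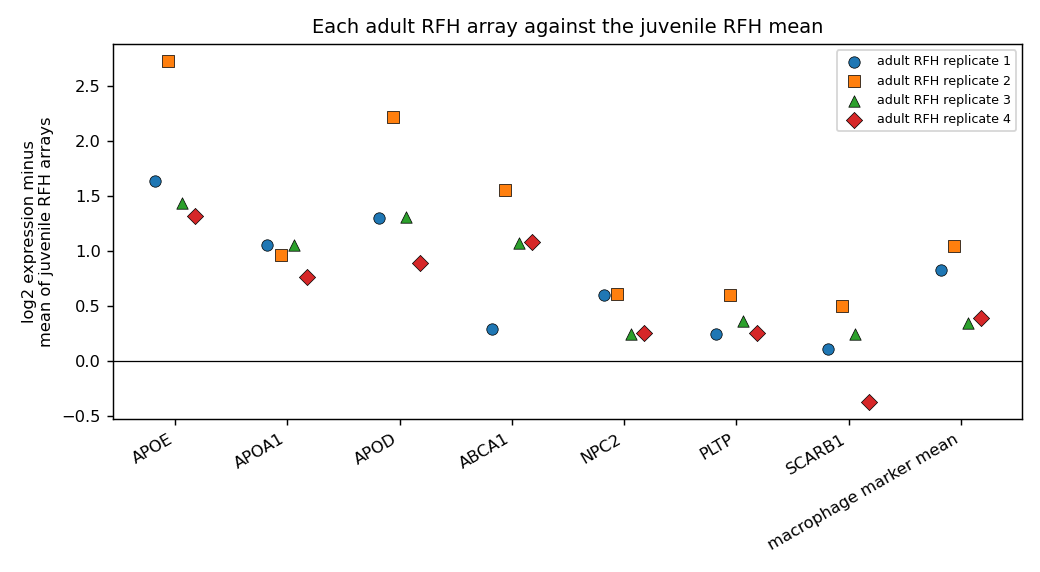
Level of each of the 7 genes in each adult RFH array minus that gene's juvenile RFH mean, on the log2 scale, with a mark for each of adult RFH replicates 1 to 4, and the same for the mean of the macrophage markers at the right. Replicate 2 is the highest for every gene but APOA1, and SCARB1 in replicate 4 is the point below 0.

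In juvenile RFH leaflets none of the 7 genes passed the test against juvenile WT leaflets, nor did any of their 11 probe sets. In the same limma fit 0.0887% of all genes were called higher and 0.0443% lower. Over all probe sets 28 were called in either direction (0.117%), and 3047 had an unadjusted p under 0.05 (12.7%). Of the 11 probe sets 1, that of PLTP described below, had an unadjusted p under 0.05. Both comparisons use the same juvenile RFH arrays, and the SE of each pools the spread of all 3 groups, the more variable adults included. Of the 7 genes 6 were higher and APOD was lower, with a median change of 0.15 beside 0.07 for all genes, 65.6% of which were higher. Only APOE, NPC2 and PLTP had juvenile RFH values wholly above the juvenile WT values, as did 26.3% of all genes. Leaving out any 1 of the 10 arrays, juvenile RFH replicate 2 included, gave no call among the 7 genes.

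Of the apolipoproteins among the 7 genes only APOE had a gap between the juvenile groups, on its brightest probe set, and the gap was small. APOE read 11.66, 11.46 and 11.43 in juvenile RFH arrays, against 11.29, 11.37 and 10.95 in juvenile WT arrays. The groups lay 0.06 apart, and the change was 0.31 (SE 0.30, 95% interval -0.36 to 0.99, limma adjusted p = 0.736). APOA1 read 11.20, 11.17 and 11.00 in juvenile RFH arrays, against 10.49, 11.00 and 10.97 in juvenile WT arrays, a change of 0.30 (95% interval -0.02 to 0.62, limma adjusted p = 0.426). Juvenile WT replicate 1 was the low array for APOA1, and the other WT arrays were close to the juvenile RFH ones. The APOA1 groups overlapped slightly, with 11.0038 in juvenile WT replicate 2 and 10.9984 in juvenile RFH replicate 3. APOD read 6.86, 7.15 and 7.49 in juvenile RFH arrays, against 7.08, 7.39 and 7.32 in juvenile WT arrays, and the groups overlapped (change -0.09, 95% interval -0.72 to 0.54, limma adjusted p = 0.933).

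The membrane proteins and the remaining carriers likewise did not pass. The exporter ABCA1 averaged 8.95 ± 0.20 in juvenile RFH and 8.79 ± 0.22 in juvenile WT leaflets (SD, n = 3 each, limma adjusted p = 0.857). SCARB1 averaged 8.21 ± 0.19 in juvenile RFH and 8.09 ± 0.08 in juvenile WT leaflets (SD, n = 3 each, limma adjusted p = 0.848). The lysosomal NPC2 averaged 11.78 ± 0.04 in juvenile RFH and 11.63 ± 0.05 in juvenile WT leaflets (SD, n = 3 each), a change of 0.15 with a 95% interval of -0.11 to 0.41 (limma adjusted p = 0.655). The 95% intervals of the ABCA1 and SCARB1 differences reached up to 0.74 and 0.55 on the log2 scale, above the rises of the brightest NPC2 and PLTP probe sets in adult RFH leaflets. With 3 arrays against 3 the exact permutation test cannot go below p = 0.1.

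PLTP again depended on the probe set. The second one, with the larger rise in adults, read 7.02, 6.78 and 6.59 in juvenile RFH arrays, against 6.02, 6.20 and 6.09 in juvenile WT arrays. The groups lay 0.40 apart, and the change was 0.70 (SE 0.30, 1.62-fold, 95% interval 0.03 to 1.36, limma unadjusted p = 0.0412 and adjusted p = 0.364). Only when the 2 juvenile groups were fitted without the adult arrays did it pass (limma adjusted p = 0.0289). The brightest PLTP probe set read 8.20, 8.35 and 8.19 in juvenile RFH arrays, against 8.16, 8.12 and 8.02 in juvenile WT arrays, a change of 0.15 (limma adjusted p = 0.646).

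The wider machinery of cholesterol handling was read from 5 lists with 132 genes, of which 71 were measured. In adult RFH leaflets 12 of the 71 rose and 6 fell relative to juvenile RFH leaflets, so that 16.9% were called higher, beside 11.4% of all genes. Their median change was 0.11. The lists differed in count. Of 22 lysosomal and intracellular sterol transport genes 6 rose and 1 fell, of 11 efflux and lipoprotein remodelling genes 3 rose and 1 fell, of 10 lipoprotein and scavenger receptors 2 rose and 1 fell, of 17 nuclear receptor and sterol sensing genes 1 rose and 2 fell, and of 11 other apolipoproteins none rose and 1 fell. Leaving out juvenile RFH replicate 2 left 9 of the 71 called, and the range over all left-out arrays was 8 to 19.

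In the lysosomal list LIPA, the acid lipase that frees cholesterol from lipoprotein esters, read 11.37, 11.68, 10.72 and 10.70 in adult RFH arrays, against 9.92, 10.08 and 9.97 in juvenile RFH arrays. Its groups were well apart, with a rise of 1.13 (SE 0.21, limma adjusted p = 0.00608) and 1.05 on its other probe set (adjusted p = 0.00448). GM2A, the lysosomal activator protein that lifts gangliosides from membranes, rose by 0.71 (limma adjusted p = 0.0105), a call missed when juvenile RFH replicate 1 was left out (0.0504) and on its other probe set (0.36, adjusted p = 0.244). NCEH1, a hydrolase of cholesterol esters, rose by 0.55 (adjusted p = 0.0196), and the oxysterol-binding family member OSBPL9 had a change of -0.32 (adjusted p = 0.0427). NCEH1 was dim, with means of 5.20 in adult RFH and 4.64 in juvenile RFH leaflets, below the array medians. NCEH1 missed the threshold when any 1 of the 3 juvenile RFH arrays was left out, and OSBPL9 passed in only 1 of the 10 fits, that without adult RFH replicate 4. NPC1, the membrane partner of NPC2, averaged 9.62 ± 0.27 (SD, n = 4) in adult RFH leaflets and 9.23 ± 0.03 (SD, n = 3) in juvenile RFH leaflets and was not called (change 0.39, limma adjusted p = 0.0721).

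ANGPTL4, a secreted inhibitor of lipoprotein lipase, led the efflux and remodelling list. It read 9.87, 10.42, 9.86 and 9.29 in adult RFH arrays, against 6.41, 6.44 and 6.23 in juvenile RFH arrays, a rise of 3.50 (SE 0.24, limma adjusted p = 1.86e-05) with 3.14 on its other probe set. LPL, the lipase it inhibits, rose by 1.17 on the brightest probe set (limma adjusted p = 0.0354) and by 3.09 on another (adjusted p = 0.00208). The first of these passed in 3 of the 10 fits that left out 1 array, those without adult RFH replicate 2, 3 or 4. CH25H, which makes an oxysterol that activates liver X receptors, rose by 1.15 (adjusted p = 0.0174). The rise missed the threshold when juvenile RFH replicate 1 was left out (adjusted p = 0.0786), and it was not called on its other probe set (0.52, adjusted p = 0.0729). CYP27A1, another oxysterol-forming enzyme, had a change of -0.51 (adjusted p = 0.0449) that passed in the same 3 of the 10 fits, and its other probe sets were not called (-0.32, adjusted p = 0.0997, and -0.55, adjusted p = 0.0517).

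Receptors moved both ways. CXCL16, a membrane chemokine that also binds oxidised lipoprotein, rose by 1.20 (SE 0.23, limma adjusted p = 0.00619) and passed without any 1 array. AMN, the membrane anchor of the receptor cubilin, rose by 0.35 (limma adjusted p = 0.0214) and missed the threshold without juvenile RFH replicate 2 (0.0805). AMN was dim, with means of 4.87 in adult RFH and 4.52 in juvenile RFH leaflets, below the array medians. VLDLR, a receptor of the LDL receptor family that binds APOE, read 10.12, 9.42, 10.29 and 9.77 in adult RFH arrays, against 10.72, 10.55 and 10.66 in juvenile RFH arrays. It fell by 0.74 (SE 0.18, limma adjusted p = 0.0184), and missed the threshold when juvenile RFH replicate 1 or 3 was left out. The other VLDLR probe set changed by -0.66 (adjusted p = 0.0144).

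INSIG1, the membrane protein that holds the sterol-sensing SREBP complex in the endoplasmic reticulum, rose by 1.64 (SE 0.18, limma adjusted p = 0.000356). Its 4 adult RFH arrays read 11.60 to 12.45, against 10.17 to 10.37 in juvenile RFH arrays, and its dimmer probe set rose by 0.60 (adjusted p = 0.0187). The related INSIG2 fell by 0.68 (adjusted p = 0.0176), a call missed when juvenile RFH replicate 1 or 2 was left out. PPARGC1A, a coactivator of mitochondrial genes, fell by 2.57 (SE 0.13, limma adjusted p = 2.11e-06), with 3.65 to 4.05 in adult RFH and 6.22 to 6.55 in juvenile RFH arrays. NR1H3, the liver X receptor alpha, read 8.41, 9.32, 8.07 and 8.09 in adult RFH arrays, against 7.72, 7.91 and 7.86 in juvenile RFH arrays. The groups did not overlap and adult replicate 2 lay far above the rest, and NR1H3 was not called (change 0.64, SE 0.25, limma adjusted p = 0.109).

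Of the other apolipoproteins SAA2, an acute-phase protein of HDL, was the called gene, with a change of -0.48 (limma adjusted p = 0.0421). It passed in 2 of the 10 fits, those without adult RFH replicate 3 or juvenile RFH replicate 1, and its other probe set changed by 0.13 (adjusted p = 0.53). CLU, also known as apolipoprotein J, changed by 0.22 (adjusted p = 0.263). Against juvenile WT leaflets none of the 71 listed genes was called in juvenile RFH leaflets by limma, and 3 had an unadjusted p under 0.05. The gene nearest the threshold in each list was APOO (change 0.29, adjusted p = 0.58), PON3 (0.54, 0.317), NPC1 (0.31, 0.392), VLDLR (0.41, 0.406) and PPARGC1A (0.38, 0.303).

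**Figure D5:**
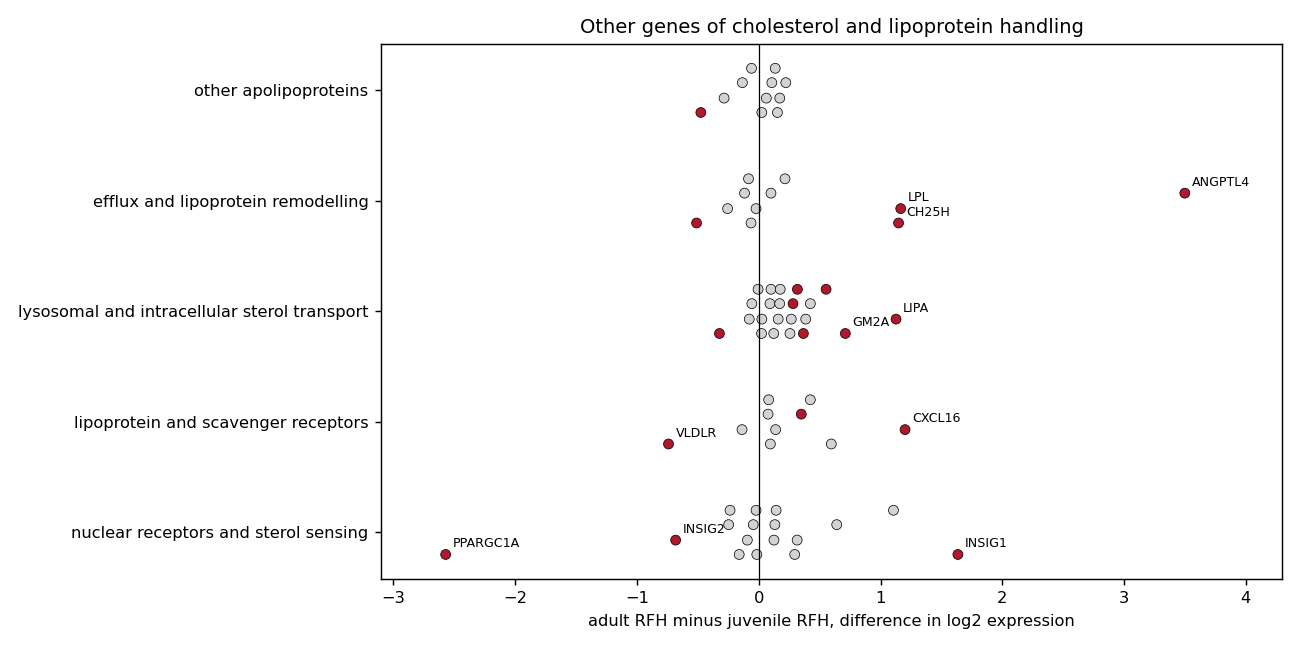
Change on the log2 scale, adult RFH minus juvenile RFH, for each of the 71 measured genes in 5 lists of cholesterol handling, a row per list with points spread vertically for legibility; red points have a limma adjusted p under 0.05 and grey points do not. ANGPTL4 lies at 3.50 and PPARGC1A at -2.57, and 53 of the 71 listed genes are grey.

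Of 17 measured macrophage markers 9 rose and none fell in adult RFH relative to juvenile RFH leaflets, and 8 were not called. Of all genes 11.4% were called higher. The median change of the markers was 0.70, beside 0.02 for all genes, and MRC1, the mannose receptor, had a change of -0.21 (limma adjusted p = 0.255). The summed linear level of the list ran between 32949 and 58053 in adult RFH, between 25679 and 27444 in juvenile RFH, and between 19415 and 21853 in juvenile WT arrays. CD14, the lipopolysaccharide co-receptor of monocytes, averaged 7.80 ± 0.22 (SD, n = 4) in adult RFH leaflets and 6.88 ± 0.19 (SD, n = 3) in juvenile RFH leaflets (change 0.92, limma adjusted p = 0.00206), while its dimmer probe set did not pass (adjusted p = 0.993). TYROBP, which relays signals of myeloid receptors, rose by 1.29 (adjusted p = 0.00329) and LAPTM5, a lysosomal protein of blood-derived cells, by 1.06 (adjusted p = 0.00279). CD163, the haemoglobin scavenger receptor of tissue macrophages, changed by 0.42 and was not called (adjusted p = 0.322). No macrophage marker was called between juvenile RFH and juvenile WT leaflets, where C1QA was nearest at 0.81 (limma adjusted p = 0.139). In that comparison 15 of the 17 markers were higher in juvenile RFH leaflets, beside 65.6% of all genes. For 9 of them the juvenile RFH values lay wholly above the juvenile WT values, as for 26.3% of all genes. The median change was 0.40, beside 0.07 for all genes. The part of macrophage number in the results on the 7 genes was not tested.

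Other cell types gave mixed readings in adult RFH relative to juvenile RFH leaflets. Of 12 endothelial markers 3 rose and 1 fell. VWF rose by 1.48 on its brightest probe set (limma adjusted p = 0.00513) but not on its other probe sets (-0.09 and 0.46, adjusted p = 0.564 and 0.0714). NOS3 rose by 1.71 (adjusted p = 0.0066) and TIE1 by 0.95 (0.0146), while ERG had a change of -0.43 (0.00853). The TIE1 call was missed when juvenile RFH replicate 1 or 3 was left out. The summed linear level of the endothelial list lay between 9948 and 20575 in adult RFH and between 8658 and 10521 in juvenile RFH arrays. Of 9 adipocyte markers 4 rose, with sums between 5955 and 8629 in adult RFH and between 3938 and 4925 in juvenile RFH arrays. CIDEA, with the smallest p of them, rose by 0.85 (adjusted p = 0.000751), and FABP4, a fatty acid carrier of adipocytes and macrophages, by 3.83 (0.00213). CFD rose by 0.79 (adjusted p = 0.0372) and passed in 4 of the 10 fits that left out 1 array. ADIPOQ, which defines adipocytes, stayed dim at 4.20 in adult RFH and 4.08 in juvenile RFH leaflets. Of 12 valve interstitial and fibroblast markers 4 fell and none rose, with sums between 83688 and 125619 in adult RFH and between 133117 and 137716 in juvenile RFH arrays. Of 4 red blood cell markers 3 fell, and HBB changed by -0.40 (adjusted p = 0.129). The 3 that fell, HBM, AHSP and ALAS2, were highest in juvenile RFH leaflets. They averaged 6.25, 4.59 and 6.29 in adult RFH, 7.61, 6.29 and 8.15 in juvenile RFH, and 6.45, 4.64 and 6.54 in juvenile WT leaflets. None of the 4 was called between juvenile RFH and juvenile WT leaflets. Of 7 smooth muscle markers 2 fell, of 4 nerve sheath markers 1 rose, and none of 13 cardiac muscle or 9 lymphocyte markers was called. The cardiac markers had a median change of -0.96, and their mean was 8.49 in juvenile RFH replicate 2, against 5.39 and 5.70 in replicates 1 and 3. With juvenile RFH arrays so far apart, the lack of cardiac calls does not show equal levels. The part of all these cell types in the results was not tested.

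The genes whose levels most resembled each of the 7 over the 10 arrays were found by Pearson correlation of brightest probe sets, and are given as a description because the arrays fall into adult and juvenile clusters. APOE was most like MSC (r = 0.995), a transcription factor, and SLC11A1 (r = 0.992), a metal transporter of the macrophage phagosome, which rose by 1.50 in adult RFH leaflets (limma adjusted p = 0.00699). APOA1 was most like LAMP1 (r = 0.979), a lysosomal membrane glycoprotein, and MRPL28 (r = 0.974). APOD was most like NARS (r = 0.988), a transfer RNA synthetase, and GM2A (r = 0.976). ABCA1 was most like the kinase JAK1 (r = 0.965) and the protease ADAM15 (r = 0.964). NPC2 was most like DNASE1L1 (r = 0.991) and GMFG (r = 0.99), an actin regulator of blood-derived cells. PLTP was most like HSPBP1 (r = 0.976) and OGDH (r = 0.974), and SCARB1 was most like S100A8 (r = 0.912), a calcium-binding protein of neutrophils and monocytes, and DCTPP1 (r = 0.89).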

How the data were processed

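Total RNA (400 ng per array) from leaflets kept in RNAlater was biotin-labelled and read on Affymetrix porcine GeneChip arrays, per the labels. The deposited table holds log2 values per probe set, with no value missing. R 2.15.2 is named in the submitters' processing notes, and how background was corrected and arrays normalized is not given in the sources used here, nor are scan dates or batches. The 124 control probe sets were read apart. Of the other 23999, 10069 carry exactly 1 symbol. The IDs of the 7 genes were found in the RefSeq gene table under the same symbols. No detection calls were used, and the number of arrays limits the precision.

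Group means were fitted over all 10 arrays by limma's lmFit, contrasts and eBayes with no trend (limma 3.58.1, R 4.3.3), after a test on simulated data. Tests were two-sided and adjusted by Benjamini-Hochberg over all probe sets, with a threshold of 0.05. SE and 95% intervals are limma's moderated ones. Controls and single genes were also tested by exact permutation over arrays. The genes, gene lists, tests and alternatives were chosen with earlier results of these data known. Besides the 7 genes, the text names from each list up to 3 called genes per direction with the smallest p, or the nearest gene where none was called, with defining markers, genes named as partners of the 7, and the 2 genes most like each of the 7.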

Additional observations from a re-analysis of the deposited data

Results flagged for a closer look

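Among 30 sets of 4 adult RFH values tested for an array far from the others (the 11 probe sets, the list means and the controls), 1 stood out. The mean over 13 liver and plasma protein markers was 5.91 in adult RFH replicate 3, against 5.57 to 5.59 in the other adult RFH arrays, and the gap made up 0.949 of the group's range. The threshold used here picks out about 1 in 20 sets by chance. Of the list's genes, SERPINA1 read 9.09 in that array, against 7.98, 5.34 and 6.86 in adult RFH replicates 1, 2 and 4. APOA1 read 12.18 in adult RFH replicate 3, within the range of the other adults.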

How the results depend on the processing

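The changes of APOE, APOA1 and APOD in adult RFH leaflets kept their direction and call under every alternative run for single genes. An added fold threshold of 2 was applied only to the count of probe sets. The rises of APOA1 (1.94-fold), NPC2 (1.35-fold) and PLTP (1.29-fold) on their brightest probe sets lie below that threshold. Averaging all probe sets per gene gave APOE a change of 0.96 in place of 1.78. It gave PLTP 1.27 in place of 0.37. Over both comparisons, 278 of 300 member values kept direction and call; the 20 calls lost and the 1 reversal in adult against juvenile RFH, and the 1 reversal in juvenile RFH against WT, follow. ABCA1 stayed at 1.00 but was not called with values below 4 raised to 4 (adjusted p = 0.051), with only the 2 groups fitted (0.0503) or by exact permutation (p = 0.0571). NPC2 was lost at 0.43 with only the 2 groups fitted (0.0712) and at 0.16 with the mean of its probe sets (0.211). PLTP was lost at 0.34 with array weights (0.0521) and at 0.37 with only the 2 groups fitted (0.0892), where 3 members were called. Leaving out 1 array gave 3 to 6 members called, ABCA1 changes of 0.82 to 1.24, NPC2 of 0.37 to 0.49, PLTP of 0.29 to 0.42 and SCARB1 of -0.0038 (without adult RFH replicate 2) to 0.29. It gave 8 to 19 listed pathway genes (18 with all arrays) and 15 to 39 listed marker genes (29 with all arrays). Against WT, APOD in juvenile RFH ran between -0.26 and 0.059 over left-out arrays, with the positive value without juvenile RFH replicate 1.

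Called probe sets in adult against juvenile RFH numbered 4025, and 2308 with only the 2 groups, 905 with an added fold threshold of 2 and 2243 to 4965 with 1 array left out, the lowest without juvenile RFH replicate 1. In juvenile RFH against WT the 28 became 6 among probe sets at or above the median, 1171 with array weights, 10 with values below 4 raised to 4, 872 with only the 2 groups and 2 to 71 with 1 array left out. No rescaling moved the median of all genes by more than 0.03. The cause was not tested for these shifts. Fits with fewer arrays have fewer degrees of freedom, while the juvenile count rose to 872 when the adults were left out. The main fit pools replicate spread over all 3 groups, so adult spread enters the SE and intervals of the juvenile comparison. Among adults the median SD of a probe set was 0.19. The matching values were 0.13 (juvenile RFH) and 0.095 (juvenile WT). With the replicate number as a block the juvenile count was 17, the adult count 3922 and the APOE rise 1.93, and 6 members were called. Deviations of same-numbered arrays correlated at -0.156 to 0.157 (adult and juvenile RFH) and -0.069 to 0.185 (juvenile RFH and WT). With so few arrays these values cannot settle whether the numbers pair the samples, and the labels do not say.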
